A study of Mus musculus with 18 samples.

Results

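The genes described here are 6 genes of fat handling in mouse colorectal tissue: Lpl, Cidec, Fabp4, Cfd, Pck1 and Nceh1. They are the measured ones among 10 genes named by symbol in the rule that defined the set, out of 10897 genes in the deposited table. Plin1, Plin4, Adipoq and Angptl4 were named in the rule too and were not analysed here. The set was drawn up partly because some of its genes had been seen at lower levels outside Control, that is, selected on measured values against Control, so every difference from Control below is a description of how the genes were chosen. Where calls of the fit over all genes are counted for them, the count describes the choice as well and is no test of the members.

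The study holds 18 total RNA libraries from 10-week-old male C57BL/6J mice, with 6 mice in each of 3 groups called Control, GF-AOM and GF-AOMS. The submitters' labels describe these groups in ways that contradict each other. By the sample characteristics, Control mice were wild type, kept specific pathogen-free (SPF), with colorectal cancer induced by AOM (azoxymethane, a colon carcinogen), GF-AOM mice were germ-free with AOM, and GF-AOMS mice were germ-free with AOM and cigarette smoke. By the treatment text, Control was a normal group, GF-AOM the AOM model, and GF-AOMS the AOM model with smoke, and the housing text names an SPF facility for all. GF-AOM against Control is therefore a difference of housing flora, of AOM, or of both, depending on which label holds, and GF-AOMS against Control adds cigarette smoke to it. GF-AOMS against GF-AOM is the same comparison under either reading: cigarette smoke on top of AOM. The labels give 1 batch for all libraries.

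Fat reaches cells as triglyceride in lipoproteins, and lipoprotein lipase (Lpl) on the wall of capillaries frees its fatty acids. Fabp4 carries fatty acids inside adipocytes and macrophages, Cidec fuses lipid droplets into larger ones, and Cfd (adipsin, complement factor D) is a serine protease of the alternative complement pathway that adipocytes secrete. Pck1, the cytosolic phosphoenolpyruvate carboxykinase, makes the precursor of glucose in liver and of the glycerol backbone of triglyceride in fat, and it is also made in gut epithelium. Nceh1 hydrolyses cholesteryl esters stored in macrophages and other cells. In colon tissue the first 4 are best known as genes of the fat cells around the gut wall. Bulk RNA does not separate cells, so fewer cells of a type and less RNA per cell cannot be told apart in any value below.

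The positions in the table match mouse build GRCm38, while the submitters' processing notes name GRCm39; coordinates here are those of the table, in GRCm38, with GENCODE M21 annotation. Lpl (ENSMUSG00000015568) lies at chr8:68880491-68906934 on the plus strand and Cidec (ENSMUSG00000030278) at chr6:113424634-113435760 on the minus strand. Fabp4 (ENSMUSG00000062515) lies at chr3:10204088-10208576 on the minus strand and Nceh1 (ENSMUSG00000027698) at chr3:27182965-27284608 on the plus strand. Pck1 (ENSMUSG00000027513) lies at chr2:173153048-173159273 and Cfd (ENSMUSG00000061780) at chr10:79890853-79892655, both on the plus strand. Nceh1 overlaps the processed pseudogene Gm37191 on its own strand, so reads of the 2 could be shared, and its values carry that uncertainty. The other 5 members overlap no annotated gene.

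Promoter sequence was at hand for 4 of the 6 members in RefSeq's table for GRCm38.p6, which holds 250 bases before and 50 after each start. Printed here are those of Pck1 and Nceh1, the pair with each gene even in level across Control replicates 3 to 6. Those of Cidec and Cfd, the pair most closely tied across the GF libraries, are printed too. All run 5′ to 3′ along the gene, with matches to the motifs searched in capitals. Pck1 is chr2:173152823-173153122 on the plus strand, Nceh1 chr3:27182754-27183053 on the plus strand, Cidec chr6:113435711-113436010 on the minus strand and Cfd chr10:79890603-79890902 on the plus strand.
Pck1: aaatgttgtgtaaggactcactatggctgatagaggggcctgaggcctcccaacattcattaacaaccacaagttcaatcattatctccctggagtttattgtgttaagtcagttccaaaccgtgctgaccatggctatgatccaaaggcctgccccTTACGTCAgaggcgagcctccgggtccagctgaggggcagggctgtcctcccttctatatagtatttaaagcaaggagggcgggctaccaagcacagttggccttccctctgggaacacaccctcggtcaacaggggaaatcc
Nceh1: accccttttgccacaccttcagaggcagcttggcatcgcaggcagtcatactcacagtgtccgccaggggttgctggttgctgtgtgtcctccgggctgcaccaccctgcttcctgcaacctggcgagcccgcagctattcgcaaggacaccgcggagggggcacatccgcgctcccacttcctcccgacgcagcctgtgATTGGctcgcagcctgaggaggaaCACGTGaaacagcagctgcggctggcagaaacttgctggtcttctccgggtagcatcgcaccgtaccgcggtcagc
Cidec: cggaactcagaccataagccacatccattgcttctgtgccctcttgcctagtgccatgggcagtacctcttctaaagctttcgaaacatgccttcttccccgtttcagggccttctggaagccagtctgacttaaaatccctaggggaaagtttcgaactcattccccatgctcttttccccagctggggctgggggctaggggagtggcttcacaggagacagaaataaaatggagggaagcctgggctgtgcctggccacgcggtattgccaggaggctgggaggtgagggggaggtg
Cfd: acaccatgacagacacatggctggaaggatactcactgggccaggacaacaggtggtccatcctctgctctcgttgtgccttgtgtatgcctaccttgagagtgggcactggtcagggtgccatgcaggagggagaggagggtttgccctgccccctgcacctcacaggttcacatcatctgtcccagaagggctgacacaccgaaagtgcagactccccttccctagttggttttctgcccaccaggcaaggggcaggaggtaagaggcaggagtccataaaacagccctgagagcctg
The 8 motifs searched on both strands were the cAMP response element as TGACGTCA and as TTACGTCA, the E-box CACGTG, the CCAAT box CCAAT, the TATA box TATAAA, the nuclear receptor site AGGTCA, the PPAR response element that repeats this site 1 base apart, and the C/EBP palindrome TTGCGCAA. The PPAR element contains the nuclear receptor site, and the other motifs do not overlap by their letters. The Pck1 promoter held TTACGTCA starting 93 bases before the start, the form in which the cAMP response element of this gene is known, and 0.499% of 32851 promoters of the same length held these letters. The Nceh1 promoter held the E-box 26 bases before the start, a motif found in 7.15% of promoters, and CCAAT on the opposite strand (printed as ATTGG) 50 bases before the start, found in 37.4%. The Cidec promoter, the second Cidec entry at chr6:113434715-113435014 and the Cfd promoter held none of the 8. No motif was matched in both promoters of either pair.

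Libraries held 48953539 to 79233656 counts, and each member had at least 59 counts in every library. Levels are given as CPM (counts relative to the library's total, scaled with TMM factors), and levels of different genes are compared only as FPKM, which divides by exon length. Control was not uniform: in replicates 3 to 6 Hoxa13 lay between 0 and 3.05 CPM and Hoxb13 between 2.43 and 2.65 CPM, while in Control replicates 1 and 2 Hoxa13 was 42.0 and 38.7 CPM, and in the 12 GF libraries it ran from 24.8 to 53.5 CPM. Hoxa13 and Hoxb13 are known as genes of the hindmost gut. Most of the differences from Control below follow this split, so each is given for all 6 Control libraries and also with the 4 low in Hoxa13 set apart.

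Lpl stepped down outside Control replicates 3 to 6. In Control its level was 11.3 CPM at the lowest, 49.9 at the median and 152 at the highest, against 11.3, 17.1 and 28.0 CPM in GF-AOM and 8.14, 13.9 and 18.7 CPM in GF-AOMS. Control replicates 3, 4, 5 and 6 stood at 47.6, 60.2, 52.2 and 152 CPM, and replicates 1 and 2 at 22.8 and 11.3 CPM. The 4 libraries low in Hoxa13 were thus the 4 highest of all 18, and the lowest of them was 1.70 times the highest of the other 14, GF-AOM replicate 6. Control replicates 1 and 2 sat inside the GF range. Means were 57.6 ± 49.7 CPM in Control, 17.7 ± 6.31 in GF-AOM and 14.1 ± 3.91 in GF-AOMS (SD, n = 6 each). The fitted log2 difference from Control was -1.70 (SE 0.44) in GF-AOM and -2.03 (SE 0.45) in GF-AOMS.

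Cidec, the droplet fusion protein, followed the same libraries at a lower count. Its level in Control was 3.48 CPM at the lowest, 19.97 at the median and 63.2 at the highest, against 4.66, 5.04 and 8.42 CPM in GF-AOM and 1.98, 4.49 and 12.2 CPM in GF-AOMS. Control replicates 3 to 6 stood at 21.5, 29.0, 18.5 and 63.2 CPM and were the 4 highest libraries, while Control replicates 1 and 2 (7.07 and 3.48 CPM) lay among the GF libraries. The highest library outside those 4 was GF-AOMS replicate 2. Means were 23.8 ± 21.5 CPM in Control, 5.58 ± 1.45 in GF-AOM and 5.60 ± 3.61 in GF-AOMS (SD, n = 6 each). The log2 difference from Control was -2.09 in both GF groups, with an SE of 0.54 in each.

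Cfd, the secreted protease, had the widest range of the 6 genes, 185-fold between its highest and lowest library. It ran from 1.03 through a median of 48.9 to 191 CPM in Control, from 3.72 through 12.5 to 25.9 CPM in GF-AOM and from 2.99 through 8.75 to 49.0 CPM in GF-AOMS. Its lowest and its highest library were thus both Control libraries: replicate 2 with 59 counts and replicate 6 with 15312. Control replicates 3 to 6 stood at 56.9, 73.9, 41.0 and 191 CPM, and replicate 1 at 7.13 CPM. GF-AOMS replicate 2 lay above Control replicate 5 on the CPM scale but below it as FPKM (32.6 against 44.7), so Control 3 to 6 were the 4 highest libraries only as FPKM. The log2 difference from Control was -2.17 (SE 0.91) in GF-AOM and -2.04 (SE 0.90) in GF-AOMS.

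Fabp4 stood apart from the other members in showing little difference between groups. Its level was 44.2, 70.1 and 224 CPM (lowest, median, highest) in Control, 34.6, 59.1 and 102 CPM in GF-AOM and 32.2, 56.0 and 105 CPM in GF-AOMS. One library, Control replicate 6, held the 224 CPM, 2.13 times the next; Control replicates 3, 4 and 5 (84.7, 99.3 and 55.4 CPM) lay within the GF range. The log2 difference from Control was -0.50 (SE 0.38) in GF-AOM and -0.67 (SE 0.38) in GF-AOMS, and without Control replicate 6 these were -0.03 and -0.20. The 3 highest GF libraries, GF-AOMS replicate 2, GF-AOM replicate 1 and GF-AOM replicate 6, had 26.2%, 15.8% and 19.2% of their counts in cytosolic ribosomal protein genes, where the median of the GF libraries was 13.65%. GF-AOM replicates 3 and 5 and GF-AOMS replicate 1 had shares of 19.0%, 15.9% and 15.9% with 62.7, 55.5 and 57.4 CPM of Fabp4, in the middle of the GF range. The part of that share in the Fabp4 level was not tested.

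Pck1 and Nceh1 were also highest in Control replicates 3 to 6, but evenly so. Pck1 stood at 156, 140.4, 101 and 156 CPM there, at 90.1 and 79.7 CPM in Control replicates 1 and 2, between 55.3 and 90.9 CPM in GF-AOM (median 72.1) and between 50.8 and 80.1 CPM in GF-AOMS (median 61.0). Its lowest value in the 4 libraries was only 1.11 times the highest elsewhere, in GF-AOM replicate 4. Control replicates 1 and 2 were in the upper reach of the GF range for this gene, with 9 of the 12 GF libraries below both. Means were 120.5 ± 34.3 CPM in Control, 71.3 ± 14.6 in GF-AOM and 62.4 ± 9.71 in GF-AOMS (SD, n = 6 each). The log2 difference from Control was -0.76 (SE 0.18) in GF-AOM and -0.95 (SE 0.18) in GF-AOMS, the smallest standard errors of the set.

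Nceh1, the cholesteryl ester hydrolase, stood at 62.6, 77.6, 43.3 and 55.6 CPM in Control replicates 3 to 6 and at 22.4 and 16.0 CPM in replicates 1 and 2. In GF-AOM it ran from 14.7 through a median of 24.2 to 31.5 CPM and in GF-AOMS from 15.3 through 18.9 to 22.3 CPM. Its highest library was Control replicate 4, not replicate 6. Means were 46.3 ± 23.8 CPM in Control, 22.9 ± 5.92 in GF-AOM and 18.7 ± 2.37 in GF-AOMS (SD, n = 6 each). The log2 difference from Control was -1.01 (SE 0.30) in GF-AOM and -1.31 (SE 0.30) in GF-AOMS.

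**Figure D1:**
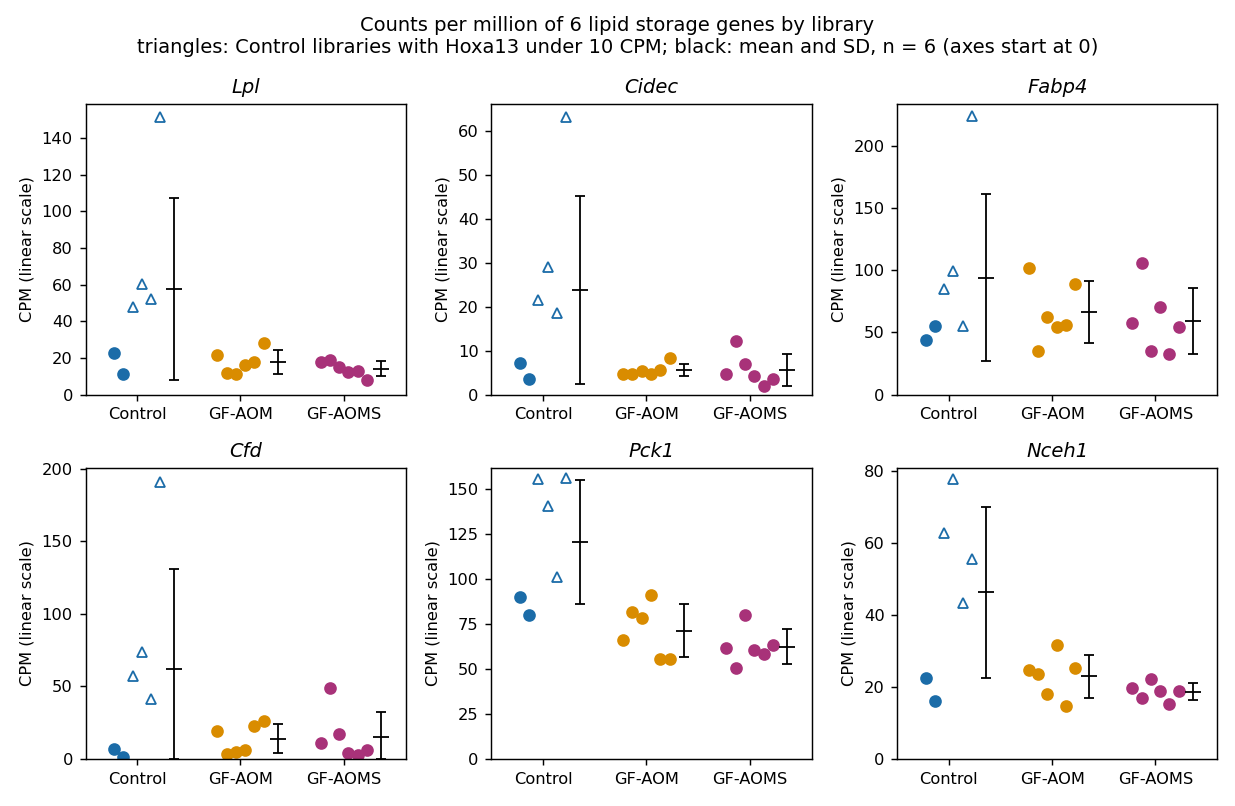
CPM of each member (vertical axis, linear, from 0) in each of the 18 libraries by group, replicates 1 to 6 from left to right; open triangles are the 4 Control libraries with Hoxa13 under 10 CPM and black bars the mean and SD (n = 6). For Lpl, Cidec, Pck1 and Nceh1 the 4 triangles are the 4 highest points, and the 2 filled Control points lie with the GF libraries.

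The members differed in how far their single highest library stood above the next. Control replicate 6 was the highest library for Lpl, Cidec, Cfd and Fabp4, at 2.52, 2.18, 2.58 and 2.13 times the second highest. For Pck1 the highest library was 1.00 times the second, and for Nceh1 1.24 times. Across all 6, Control 3 to 6 were the 4 highest libraries for 4 members by CPM and for 5 by FPKM. The same 4 libraries were the highest for 2.87% of all genes by CPM and 2.49% by FPKM; since the choice of members looked at Control, nothing is read from that comparison. For every member the values of each GF group overlapped those of Control, and for Lpl, Cidec, Pck1 and Nceh1 the overlap was with Control replicates 1 and 2. Over all genes 0.459% lay entirely lower in GF-AOM than in Control and 0.541% in GF-AOMS.

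As FPKM, the order of the members' medians differed between the groups. In Control the medians ran from Cfd (51.4) through Pck1 (33.2), Fabp4 (15.1), Cidec (10.4) and Nceh1 (8.75) to Lpl (4.64). In GF-AOM Pck1 led (16.7), followed by Cfd (12.3), Fabp4 (11.2), Nceh1 (3.81), Cidec (2.41) and Lpl (1.48), and in GF-AOMS the order was Pck1 (16.5), Fabp4 (10.7), Cfd (7.92), Nceh1 (3.11), Cidec (2.05) and Lpl (1.14). Pck1, made in gut epithelium as well as fat, thus had the highest median in both GF groups, and Cfd in Control. Neighbours in these orders overlapped in their ranges over libraries, except in GF-AOM, where Fabp4 (7.44 to 20.3) lay clear of Nceh1 (2.41 to 5.76) and Cidec (2.03 to 3.22) clear of Lpl (0.76 to 1.90). FPKM here divides by all annotated exon bases, 10478 for Lpl against 922 for Cfd, so genes with long or many annotated ends read low. Inside Control the top place followed the split. In replicates 3 to 6 Cfd had 44.7 to 179.8 FPKM and Pck1 29.7 to 42.7. In replicates 1 and 2 Pck1 had 24.5 and 18.05 FPKM and Cfd 7.18 and 0.86.

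The fit over all genes (edgeR's quasi-likelihood test, Benjamini-Hochberg adjustment, threshold 0.05) called 0.734% of all genes in GF-AOMS against Control, 0.624% lower, and 3 of 6 members, Lpl, Pck1 and Nceh1, were among them. In GF-AOM against Control it called 0.00918% of all genes and 0 of 6 members. The choice of members used these contrasts, so the counts are not evidence about the set. Across the 18 fits that left out 1 library, the call in GF-AOMS against Control held in 2 for Lpl, in 2 for Nceh1 (both times without Control replicate 1 or 2) and in 10 for Pck1. Cidec, not called in the full fit, was called in 2 of these fits as well, and Fabp4 and Cfd in 0. The GF comparisons share the 6 Control libraries and are not separate tests of Control.

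With the 4 Control libraries low in Hoxa13 left out, or with a term for them in the model, the differences from Control shrank or changed sign. Without these libraries GF-AOM minus Control was 0.06 for Lpl, 0.08 for Cidec, 0.41 for Fabp4, 0.26 for Nceh1, -0.25 for Pck1 and 1.77 for Cfd (log2). GF-AOMS minus Control was -0.27 for Lpl, 0.09 for Cidec, 0.25 for Fabp4, -0.04 for Nceh1, -0.44 for Pck1 and 1.90 for Cfd. Pck1 was the 1 member with a negative value in both GF groups, each smaller in size than in the full fit. Its GF-AOM value of -0.25 had an SE of 0.19, and its GF-AOMS value of -0.44 was larger in size. Only 2 Control libraries are the reference, and the members were chosen against Control. The sign of Pck1 is therefore given as a description, and no remaining difference is read from it. The positive values of Cfd rest on the 59 counts of Control replicate 2 and on replicate 1. Leaving out the 4 libraries was chosen after the data were seen and leaves 2 Control libraries. The term marks only those 4, so it too sets the GF groups against Control replicates 1 and 2 and is no separate check. The part of tissue position in the members' levels was not tested.

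**Figure D2:**
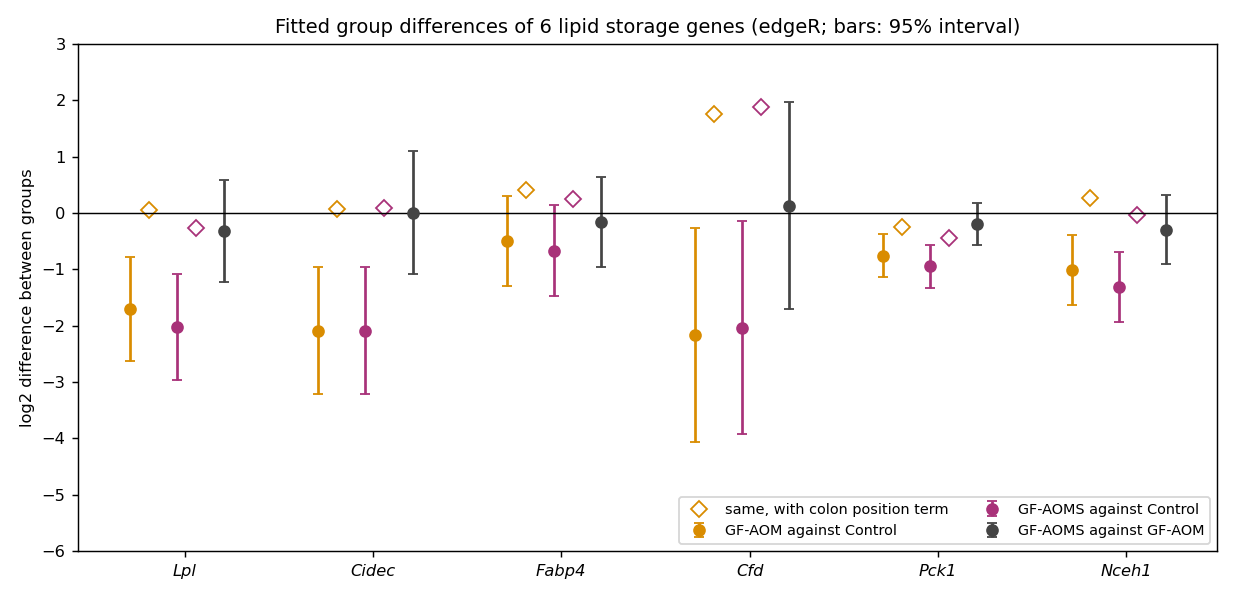
Fitted log2 differences between groups for each member (vertical axis), filled points with 95% intervals from edgeR over 18 libraries. Open diamonds add a term for the 4 Control libraries low in Hoxa13, which leaves Control replicates 1 and 2 as reference. The filled points against Control lie below 0 for all 6 members, the diamonds at or near 0 for Lpl, Cidec and Nceh1 and above 1.5 for Cfd, and the intervals of GF-AOMS against GF-AOM all include 0.

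Cigarette smoke on top of AOM, the comparison that the choice of members did not use, gave no difference that passed the test for any member. GF-AOMS minus GF-AOM on the log2 scale was -0.33 for Lpl (95% interval -1.23 to 0.58), 0.00 for Cidec (-1.09 to 1.10) and 0.13 for Cfd (-1.70 to 1.97). It was -0.17 for Fabp4 (-0.96 to 0.63), -0.30 for Nceh1 (-0.91 to 0.32) and -0.19 for Pck1 (-0.57 to 0.18). Each adjusted p was 1 by edgeR's quasi-likelihood test, and the smallest unadjusted p was 0.297, for Pck1. Over all genes 0% were called by edgeR, with 119 at an unadjusted p under 0.05; DESeq2 called 3 genes and limma 0, none of them a member.

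The intervals differ in what they leave possible. Their widths come from the fit of all 18 libraries, so the spread inside Control enters them too. For Cfd the highest library was 185-fold the lowest in Control, 6.96-fold in GF-AOM and 16.4-fold in GF-AOMS. For Pck1 the interval runs from a log2 difference of -0.57 to 0.18, so a 2-fold change in either direction lies outside it, while for Cfd changes of 2-fold in both directions lie inside. Medians of GF-AOMS were below those of GF-AOM for all 6 members, and for Nceh1 0 of 6 GF-AOMS libraries lay above the GF-AOM median. The groups overlapped for every member; over all genes 0.0551% lay entirely higher in GF-AOMS than in GF-AOM and 0.00918% entirely lower. For Cidec and Cfd the differences lay so near 0 that leaving out 1 library changed the sign in 6 of 18 fits for Cidec and 4 of 18 for Cfd. The lowest values came without GF-AOMS replicate 2, at -0.38 for Cidec and -0.71 for Cfd. That library had the highest ribosomal protein share of all 18 (26.2%) and the lowest Hoxa13 and Hoxb13 of the GF libraries (24.8 and 19.8 CPM); the part of either in its Cidec and Cfd values was not tested.

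Inside the 12 GF libraries, which the choice of members did not compare, the closest pairs were Cidec with Cfd and Lpl with Cfd. Of 15 pairs, Cidec and Cfd had the highest coefficient, with Pearson's r = 0.809 (adjusted p = 0.0072) and Spearman's rho = 0.818 (adjusted p = 0.028) by permutation of log2 CPM, and r = 0.654 without the 2 libraries farthest from the median of Cidec. Lpl and Cfd had r = 0.721 (adjusted p = 0.0543, permutation) and rho = 0.769 (adjusted p = 0.0346), with r = 0.814 without 2 libraries. These were the pairs with an adjusted p under 0.05 on either measure, and with total counts or FPKM Lpl and Cfd fell to r = 0.568 and 0.563. Leaving out GF-AOMS replicate 2 took the r of Cidec and Cfd to 0.712 and its adjusted p past 0.05.

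Pck1 and Nceh1 had r = 0.632 (adjusted p = 0.134, permutation) and rho = 0.608. This pair passed on other scales, with r = 0.815 on counts scaled by the library total alone and 0.823 on FPKM, where adjusted p over its other scales ran from 0.0132 to 0.132 by permutation. With the other 4 members Pck1 had negative coefficients, with Lpl (-0.332), Cidec (-0.179), Fabp4 (-0.465) and Cfd (-0.467), none past the test. Fabp4 had positive coefficients with Cfd (0.611), Cidec (0.578), Lpl (0.533) and Nceh1 (0.099), none past the test. Nceh1 and Cfd gave -0.013. Within GF-AOM alone Cidec and Cfd had r = 0.602, and within GF-AOMS alone 0.939 (n = 6 in each, described with no test). Lpl and Cfd had 0.897 in GF-AOM and 0.621 in GF-AOMS, so both pairs were positive in both groups.

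**Figure D3:**
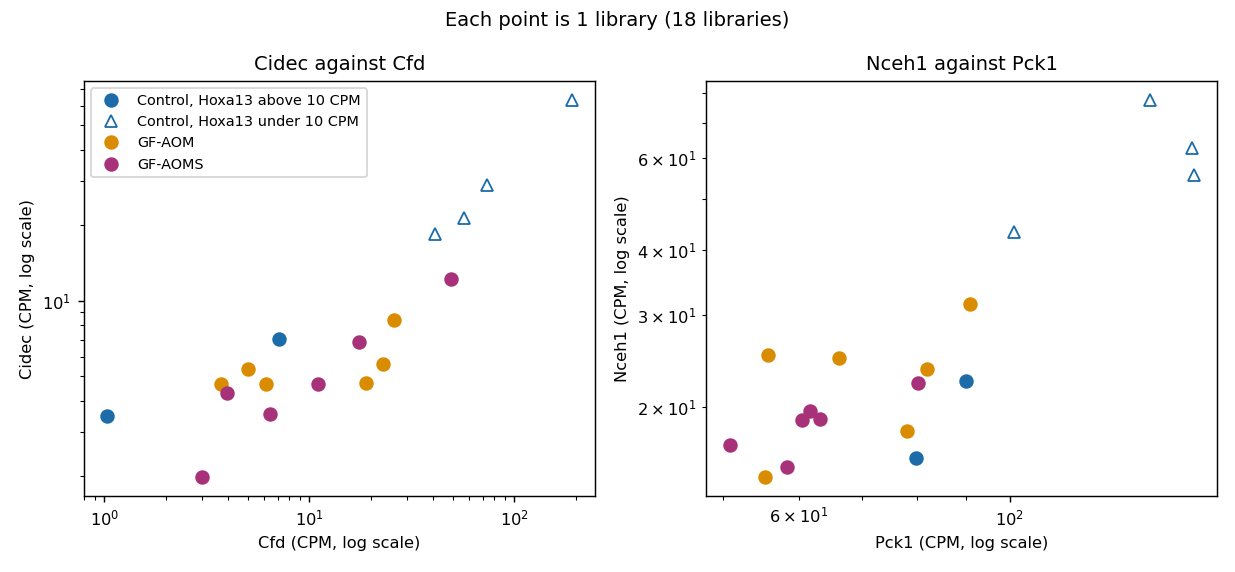
Each point is 1 of 18 libraries, with CPM on log axes: Cidec against Cfd on the left, Nceh1 against Pck1 on the right; triangles are the 4 Control libraries low in Hoxa13. Cidec rises with Cfd along the GF libraries (r = 0.809 over 12), and in both panels the triangles lie at the upper right.

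Over all 18 libraries, the genes whose levels ranked most like each member were found among all genes by Spearman's rho of log2 CPM, a description that shares libraries, scaling and the Control split. For Cidec these were Cfd (0.917), Chn2 (0.884) and Hsd3b7 (0.878), and for Lpl Ces1e (0.88), Hsd3b7 (0.87) and Cfd (0.864). Cfd ranked with Cidec, with Car3 (0.874) and with Lpl; Car3, the muscle and fat form of carbonic anhydrase, is abundant in adipocytes. Cfd was thus among the 3 nearest genes of both Cidec and Lpl out of the whole table. The nearest genes of Pck1 were Itfg1 (0.948), Abcb1a (0.948), which encodes a drug efflux pump of gut epithelium, and Retsat (0.942), a retinol saturase. Those of Nceh1 were Nrep (0.915), Cyp2c65 (0.897) and Lpin2 (0.891), a phosphatidate phosphatase of triglyceride synthesis. Fabp4 ranked with Fth1 (0.922), the ferritin heavy chain, Pmm1 (0.911) and Immp2l (0.901). No other member was among these 3.

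Adipocyte genes as a group were next read beside the members, from a list of 25 markers of which 10 were measured. All 10, with 4 members among them, had a negative log2 difference from Control in both GF groups. Without the members the median of the other 6 was -0.78 in GF-AOM and -0.92 in GF-AOMS, against -0.00 and 0.01 over all genes, and none of the 6 passed the test. Their summed level was 155.8 to 212 FPKM in Control replicates 3 to 6 and 57.4 and 97.2 FPKM in Control replicates 2 and 1. It ran from 48.7 to 90.5 FPKM in GF-AOM and from 49.3 to 106 FPKM in GF-AOMS, and no gene of the 6 was at 0 in any library. The list carries defining adipocyte markers that were not analysed here (Adipoq, Plin1 and Lep among them). The members on it are Lpl, Cidec, Cfd and Fabp4, and Fabp4 showed little difference between groups.

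Of those 6, Car3 followed Cfd, with 19.5 to 80.3 FPKM in Control replicates 3 to 6 and 1.17 to 9.80 FPKM in the other 14. Pparg, the nuclear receptor that drives adipocyte formation and is also high in colon epithelium, had 30.9 to 42.0 FPKM in the 4 libraries and 8.55 to 21.8 elsewhere. Cebpa, a transcription factor of fat, liver and gut, had 23.3 to 26.7 FPKM there and 9.25 to 17.8 elsewhere. Gpd1, the glycerol phosphate dehydrogenase, had 21.9 to 23.6 FPKM there and 3.33 to 10.0 elsewhere. Thus 4 of the 6 had Control 3 to 6 as their 4 highest libraries by CPM, where 2.87% of all genes had. Thrsp did so by FPKM and not by CPM, and Pnpla2, the main triglyceride lipase of fat cells, did so on neither scale, with 41.0 to 49.9 FPKM there and up to 52.2 elsewhere. The log2 difference of Pparg from Control was -0.76 (SE 0.23) in GF-AOM and -0.79 (SE 0.23) in GF-AOMS, and that of Cebpa -0.46 and -0.59 (SE 0.14 each), with no adjusted p under 0.05.

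**Figure D4:**
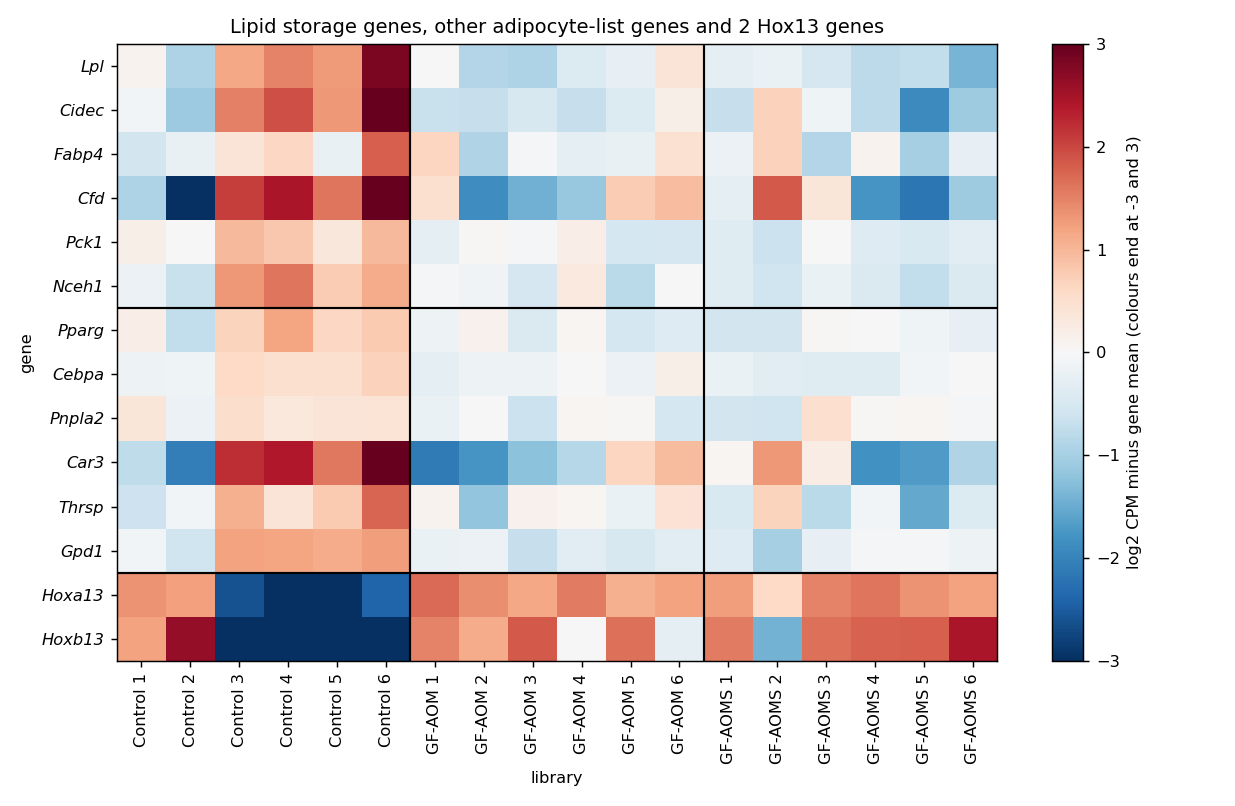
Log2 CPM of each gene minus its mean over 18 libraries (colour, ending at -3 and 3), with the 6 members on top, the other 6 measured adipocyte-list genes below and Hoxa13 and Hoxb13 at the bottom; columns are libraries by group. Control replicates 3 to 6 are red for Lpl, Cidec, Cfd, Pck1 and Nceh1 and blue for both Hox genes, and Control replicates 1 and 2 look like the GF libraries.

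Of the colonocyte markers 1 of 15, Car1, had Control 3 to 6 as its 4 highest libraries by CPM, where 2.87% of all genes had. Summed colonocyte markers stood at 8062 to 20330 FPKM in Control replicates 3 to 6, at 3581 to 5054 in Control replicates 1 and 2 and at 2156 to 4797 in the GF libraries, and Car1 alone, a carbonic anhydrase of colonocytes, at 4021 to 13750 FPKM in the 4 libraries and at most 600.1 elsewhere. Without Car1 the other 14 summed to 4040 to 6576 FPKM in Control replicates 3 to 6, 3128 and 4540 FPKM in Control replicates 2 and 1, and 2058 to 4264 FPKM in the GF libraries, and both of the latter ranges overlapped that of the 4. Of 15 colonocyte genes, 2 were called lower in GF-AOMS against Control, Car1 (log2 -3.91, SE 0.70, adjusted p = 0.0304) and Cdhr5 (-1.34, SE 0.27, adjusted p = 0.0304), by edgeR. Without the 4 libraries no listed gene was called, and leaving out 1 library moved the calls over all 18 lists from 0 (without Control replicate 3) to 36 (without Control replicate 2). Both colonocyte calls were lost without Control replicate 3, 4 or 6 and without GF-AOMS replicate 1, 2, 4, 5 or 6. Signs in the colonocyte list were negative for 13 of 15 genes in GF-AOM and for 12 of 15 in GF-AOMS (medians -0.53 and -0.55). Of the fibroblast list 11 of 12 and of the endothelial list 9 of 11 were negative in GF-AOMS against Control (medians -0.43 and -0.43). In the same comparison 10 of 11 smooth muscle genes were positive (median 0.36). No gene of the fibroblast, endothelial or smooth muscle list was called. Of 10 macrophage genes 10 were positive in GF-AOM and 6 in GF-AOMS, none called. The part of epithelium, fat, stroma or muscle in the members' levels was not tested.

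Among the pathway lists, calls outside the members were few. For lipoprotein lipase handling 15 genes were measured, and none besides Lpl was called in GF-AOMS against Control; the median of the other 14 was -0.13. Of 12 genes of triglyceride hydrolysis none besides Lpl was called, and the other 11 had medians of -0.48 in GF-AOM and -0.40 in GF-AOMS. Of 18 regulators of Pck1 and of adipocyte genes, with Pparg and Cebpa among them, 15 were negative in each GF group (medians -0.31 and -0.27) and none was called. For triglyceride synthesis 18 were measured and 1 was called, Lpin2, with 3.60 to 6.01 FPKM in Control replicates 3 to 6 and 0.65 to 3.32 FPKM elsewhere. Its log2 difference was -1.18 (SE 0.24, adjusted p = 0.0408, edgeR) in GF-AOMS and -0.96 in GF-AOM. The call was lost without any 1 of Control replicates 3 to 6 and in 12 of 18 fits that left out 1 library, and the difference was -0.47 without the 4 Control libraries low in Hoxa13.

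Of 14 lipid droplet proteins, none was called; 8 were negative and 6 positive in each GF group, and the 13 besides Cidec had a median of -0.07 in each. Fitm2, which helps droplets bud from the endoplasmic reticulum, was -0.37 and -0.52 (log2) in the GF groups with no call. Of 13 genes of the cholesteryl ester cycle, none besides Nceh1 was called in GF-AOMS, and the median of the other 12 was -0.03. Of 16 genes of gluconeogenesis and glyceroneogenesis, none besides Pck1 was called in GF-AOMS, and the other 15 had a median of -0.04.

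Of 23 measured targets of the PPAR nuclear receptors, 23 were negative in GF-AOM and 21 in GF-AOMS, the members Lpl, Cidec and Pck1 included. Besides the members, 20 of 20 and 18 of 20 were negative. Their medians were -0.35 and -0.33, against -0.00 and 0.01 over all genes. None besides the members Lpl and Pck1 was called. Of the 23, 9 had Control 3 to 6 as their 4 highest libraries by CPM, with Lpl, Pck1 and Cidec among them. Over all genes the share was 2.87%. Fatty acid uptake and binding had 12 of 14 negative in GF-AOM and 10 in GF-AOMS with no call. Of the 13 besides the member Fabp4, 11 and 9 were negative. In it Slc27a4, a fatty acid transport protein of the intestine, was -0.82 (SE 0.21) and -0.76 (SE 0.21), with 19.97 to 32.2 FPKM in Control replicates 3 to 6 and at most 17.3 elsewhere. Acsl3, an acyl-CoA synthetase of lipid droplets, was -1.02 (SE 0.26) and -0.89 (SE 0.26).

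Of 13 measured complement genes, Cfd included, 8 were negative in each GF group and none was called, with a median of -0.16 in GF-AOMS for the 12 besides Cfd. Cfb, the substrate that Cfd cleaves, was 23.9 to 29.4 FPKM in those libraries and 15.2 to 28.3 FPKM elsewhere, so the 2 ranges overlapped. Its log2 difference from Control was -0.29 in GF-AOM and -0.23 in GF-AOMS (SE 0.11 each), with no adjusted p under 0.05. In GF-AOMS against GF-AOM no list had a called gene, and the medians of the adipocyte, droplet, PPAR target and complement lists were -0.01, 0.04, 0.04 and -0.07.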

How the data were processed

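Total RNA from colorectal tissue of 18 mice was depleted of ribosomal RNA, made into strand-specific libraries and sequenced, per the labels' protocols. The deposited table holds counts per gene and FPKM per gene for each library, both made by the authors. The submitters' processing notes name featureCounts, DESeq2 and GRCm39; no aligner or version is given in the sources used here. Gene positions in the table match GRCm38. All genes listed reach 1 FPKM in 15 or more libraries. Per the file headers the deposited count columns name each library.

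Counts of all 10897 genes were fitted in 1 model of 18 libraries with edgeR 4.0.16 (R 4.3.3): TMM scaling, 1 coefficient per group, the quasi-likelihood test (glmQLFit, glmQLFTest), two-sided, with Benjamini-Hochberg adjustment over the whole table and a threshold of 0.05. CPM are TMM-scaled, and log2 CPM use a prior count of 2. Differences come with their SE and 95% interval from this fit. Pair correlations used the 12 GF libraries with 100000 permutations, two-sided, adjusted over 15 pairs. The fit was tested on simulated counts. Alternatives were DESeq2 1.42.0, limma 3.58.1 on log2(FPKM + 1) and log2(FPKM + 0.1), other scalings and filters, terms for position (Hoxa13 under 10 CPM) and ribosomal protein share, a replicate block, and each library left out.

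The members and gene lists were chosen with earlier results of these data known. Genes named in the text are all measured members, from each of 18 lists every gene called in any contrast or otherwise the 2 with the smallest p, the 3 genes most like each member by Spearman's rho, and Hoxa13 and Hoxb13; Gpd1, Thrsp and Pnpla2 were named after their values were seen.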

Additional observations from a re-analysis of the deposited data

Results flagged for a closer look

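Cidec in GF-AOM replicate 6 stood apart from its group, at 3.08 on the log2 CPM scale. Its level was 8.42 CPM, where the other 5 GF-AOM libraries lay between 4.66 and 5.63 CPM, and the gap to the nearest of them was 0.683 of the group's whole range, above Dixon's critical value for 6 samples. It was the 1 such sample in 18 checks (6 members in 3 groups), and chance gives about 1 in 20. The same library was the highest of GF-AOM for Lpl (28.0 CPM) and Cfd (25.9 CPM), and 19.2% of its counts were in ribosomal protein genes; their part in the value was not tested.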

How the results depend on the processing

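The differences from Control were described for 6 members in each GF group, and each kept its sign under DESeq2, limma, the other scalings, the 2-group fit, the replicate block, the ribosomal share term and each library left out. The stricter filter kept Cfd, Fabp4 and Pck1, with their signs, and gave no value for Lpl, Cidec and Nceh1. The signs were not all kept under the colon position term (an indicator of Hoxa13 under 10 CPM, carried only by 4 Control libraries). Nor were they all kept without those 4 libraries, an alternative chosen after seeing the data. Control replicates 1 and 2 are the reference in both settings. Under these, in that order, GF-AOM minus Control was 0.056 and 0.059 for Lpl, 0.079 and 0.081 for Cidec, 0.413 and 0.411 for Fabp4, 0.257 and 0.256 for Nceh1, -0.251 and -0.254 for Pck1, and 1.757 and 1.767 for Cfd. GF-AOMS minus Control was -0.27 and -0.266 for Lpl, 0.081 and 0.087 for Cidec, 0.247 and 0.248 for Fabp4, -0.041 and -0.039 for Nceh1, -0.443 and -0.443 for Pck1, and 1.887 and 1.9 for Cfd. Of the other named genes, the sign changed in GF-AOM for Cebpa (0.045 and 0.042), Cnn1 (-0.012 and -0.016) and Pparg (0.005 and 0.005). In GF-AOMS it changed for Upk1b (0.057 and 0.057, and -0.241 to 0.078 with 1 library left out). It changed there for Hoxa13 too (-0.015 and -0.016), but both settings are defined by Hoxa13 itself. For smoke, Cfd was -0.094 and -0.11 under limma with pseudocounts 1 and 0.1, and Cidec, at 0.00 in the fit reported, was -0.084 and -0.149 there, -0.001 with upper quartile scaling, -0.029 with total counts only and -0.03 with the ribosomal share term; with 1 library left out they ran from -0.714 to 0.427 and from -0.383 to 0.178. No alternative called a member there. Genes called over the whole table in GF-AOM against Control (1) were 284 by DESeq2, 0 and 0 by the limma fits, 0 with total counts only, 0 with only the 2 groups compared, 0 with the ribosomal share term, and 0 (without Control replicate 3) to 356 (without Control replicate 2) with 1 library left out. In GF-AOMS against Control (80) they were 375 by DESeq2, 18 and 16 by limma, 47 with upper quartile scaling, 28 with total counts only, 0 with only the 2 groups, 0 with the position term, 8 with the ribosomal share term, 0 without the 4 Control libraries and 0 (without Control replicate 3, among others) to 493 (without Control replicate 2) with 1 left out. In GF-AOMS against GF-AOM (0) they were 3 by DESeq2 and 3 with the ribosomal share term. Calls over the gene lists in GF-AOM against Control (0) were 21 by DESeq2 and 0 to 27 with 1 library left out. In GF-AOMS against Control (6) they were 26 by DESeq2, 0 and 0 by limma, 2 with total counts only, 3 with FPKM of at least 5 in 6 libraries, 0 with only the 2 groups, 0 with the position term, 0 with the ribosomal share term, 0 without the 4 Control libraries and 0 to 36 with 1 left out. Replicate numbers did not pair the samples: 7 of 18 same-numbered pairs had a correlation of deviations over 0.1, and they ran from -0.619 to 0.517. With the replicate block 2 genes were called in GF-AOM against Control, 33 in GF-AOMS against Control and 3 over the lists in the latter. For pairs of members, Lpl and Cfd passed with RLE scaling (r = 0.729) and centred on group means (0.746), and Nceh1 and Pck1 with total counts only (0.815) and log2(FPKM + 1) (0.823). Fabp4 and Nceh1 changed sign with total counts (-0.014) and FPKM (-0.006), and Nceh1 and Cfd with RLE scaling (0.003). With 1 GF library left out r ran from 0.712 to 0.844 for Cidec and Cfd, 0.407 to 0.737 for Cidec and Fabp4, -0.154 to 0.413 for Cidec and Nceh1, -0.433 to 0.135 for Cidec and Pck1, 0.480 to 0.765 for Fabp4 and Cfd, -0.103 to 0.255 for Fabp4 and Nceh1, 0.688 to 0.793 for Lpl and Cfd, -0.211 to 0.161 for Nceh1 and Cfd, and 0.444 to 0.785 for Nceh1 and Pck1. The cause of these changes was not tested. With 6 libraries a group and a spread fitted with Control included, the smoke interval of Cfd includes 2-fold changes in both directions.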
